A study of Mus musculus with 28 samples.

Results

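The circadian clock genes described here are 10 genes of the molecular clock: Arntl, Npas2, Clock, Cry1, Nfil3, Nr1d1, Nr1d2, Dbp, Per2 and Per3. They were chosen by name, out of 35928 genes with a symbol in one set of libraries and 24845 genes in the other, and all 10 had a row in both. In the mammalian clock, ARNTL (also called BMAL1) pairs with CLOCK or NPAS2, binds E-box sequences and turns on the Per and Cry genes, whose proteins then hold ARNTL and CLOCK back. A second loop is made by NR1D1 and NR1D2 (REV-ERB alpha and beta), which repress Arntl, Npas2, Clock, Cry1 and Nfil3 through ROR response elements. Another is made by DBP, an activator, and NFIL3, a repressor, which compete for D-box sequences in genes such as Per3. In mouse liver, Arntl, Npas2 and Clock therefore peak at a different hour of the day from Dbp, Nr1d1 and the Per genes, and the liver clock is also set by feeding and by glucocorticoids.

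The series measured RNA in mice that express human APOBEC3B (A3B), a DNA and RNA cytosine deaminase, after doxycycline is given in food at 625 ppm. A3B mice carry TetO-A3B, which is A3B fused to turboGFP at the ColA1 locus, and the CAGs-rtTA3 driver, which is active in most tissues. Set 2 holds livers of 6 A3B and 2 control mice and pancreases of 6 A3B and 2 control mice, all labelled as 10 days on doxycycline; its controls carry the A3B transgene without the driver. Set 1 holds livers and lungs of 3 A3B and 3 control mice each, with A3B livers 23 and 28 labelled as 14 days on doxycycline, the other A3B samples as 10 days and controls as 15 days. The labels and the study's methods give doxycycline to the controls, but its list of mice gives none to the controls of set 1 other than mouse 87, and a legend of the study calls the controls of set 2 untreated. A3B mice were collected when they reached a humane end point, and the hour of collection is not given in the sources used here. Each library is 1 mouse, and 5 A3B mice (44, 49, 125, 137 and 153) and both controls (45 and 168) of set 2 gave both liver and pancreas; mice 70 and 91 of set 1 gave liver and lung.

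The genotype labels of pancreases 44, 137, 45 and 168 and of control liver 11 contradict their titles, control lung 87 is labelled as CAGs without A3B, and the groups follow the titles. In set 1, which lists the transgene, the A3B livers held 705 to 1705 TPM of it (TPM is the share of transcripts, scaled to a fixed total), the A3B lungs 90.6 to 281 TPM and the controls 0.0929 to 0.526 TPM, with 0.144 TPM in control liver 11. Libraries of set 2 held 65161064 to 118976013 estimated counts. Control pancreases stood apart, as 10 genes took 59.7% and 62.4% of their counts against 12.1% to 20.6% in A3B pancreases. Summed acinar markers reached 195426 and 205624 TPM in control pancreases and 46840.5 to 143056 TPM in A3B pancreases, while summed leukocyte markers were at 35.7 and 527 TPM against 1094 to 3342 TPM. Summed hepatocyte markers were at 79519 and 132625 TPM in the control livers of set 2 and at 31692 to 73670 TPM in the A3B livers. Alb made up much of these sums, at 54669 and 107806 against 19353 to 44124 TPM. Ttr was also below both controls in every A3B liver of set 2, but Apoa1, Tat, Cps1 and Fgb overlapped. There edgeR called 0 of 6 hepatocyte markers, against 3.66% of all genes tested. In set 1 the sums overlapped (6267 to 7822 against 5533 to 6998 TPM). Summed adipocyte markers were at 4.99 and 5.60 TPM against 17.8 to 178 TPM in livers of set 2 and at 8.59 to 11.6 against 111 to 527 TPM in those of set 1, where 2 of the 3, Adipoq and Plin1, stayed under 1 TPM and Cidec made up the sum. In lungs, summed leukocyte markers were at 1699 to 1912 TPM in controls and 1300 to 1570 TPM in A3B mice, without overlap. Summed adipocyte markers were at 46.8 to 105 against 111 to 469 TPM, also without overlap. Taken singly, only Lyz2 among the leukocyte markers and Cidec among the adipocyte markers did not overlap between the lungs. There, 1 of 6 leukocyte and 0 of 3 adipocyte markers were called, against 36.8% of all genes tested. Summed lung epithelium markers overlapped (17854 to 18845 against 16545 to 17952 TPM). The part of these markers in the clock gene values was not tested. In bulk RNA, fewer cells of a type and less RNA per cell cannot be told apart.

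Sequences that the clock proteins are known to bind were searched for in the promoters of these genes (RefSeq, GRCm38.p6, 250 bases before to 50 bases after each start, both strands). Entries matched 9 of the 10 genes; Per2 had none. The following short stretches are shown because they are all the matches found in these genes, and they show which of the elements named above each promoter holds. Capitals mark the motif, and each stretch reads 5′ to 3′ on the gene's strand.
Arntl, ROR element core TAGGTCA, chr7:113207531-113207557, plus strand: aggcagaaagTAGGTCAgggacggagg
Nfil3, the same core read on the opposite strand, chr13:52981035-52981061, minus strand: cgctcggaacTGACCTActaacacaca
Cry1, E-box CACGTG, chr10:85185099-85185124, minus strand: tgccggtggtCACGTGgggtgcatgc
Cry1, variant E-box CACGTT read on the opposite strand, chr10:85185118-85185143, minus strand: acacttcagaAACGTGaggtgccggt
Nr1d1, variant E-box on the opposite strand, chr11:98775390-98775415, minus strand: cacagatctcAACGTGccggctgctg
Per3, D-box TTATGTAA, chr4:151044853-151044880, minus strand: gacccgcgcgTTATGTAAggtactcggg
Per3, a second D-box, chr4:151044806-151044833, minus strand: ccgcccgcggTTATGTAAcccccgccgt
Among 32851 promoters of this length, 7.15% held CACGTG, 4.68% held CACGTT, 6.45% held TAGGTCA or TGGGTCA and 1.66% held TTATGTAA or TTATGCAA. Of the 9 genes, 1 held the E-box, 2 the variant E-box, 2 the ROR element core and 1 the D-box. No match in Dbp, Npas2, Clock or Nr1d2 says only that these letters are not in this window.

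In livers of set 2, 5 of the 10 clock genes changed, against 3.66% of the 17376 genes tested (edgeR quasi-likelihood test, Benjamini-Hochberg adjusted p below 0.05). Arntl and Cry1 rose, and Nr1d1, Dbp and Per3 fell. The TPM values of the A3B and control livers did not overlap for 7 of the 10 genes, as they did not for 29.7% of all genes tested. A control group of 2 livers carried each call. Without control 45 or without control 168, which leaves 1 control, the 5 calls were lost, as most calls were over all genes. All 5 genes kept their direction. Without A3B liver 44, 137 or 125, the edgeR test was passed by 3, 2 and 3 clock genes and by 1.25%, 1.03% and 2.19% of all genes.

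Arntl (chr7:113207465-113314126, GRCm38), the activator at the centre of the clock, was at 2.29 and 2.38 TPM in the control livers and at 7.28 to 29.3 TPM (median 15.9) in the A3B livers. Every A3B liver lay above both controls, and the log2 fold change was 2.49 (SE 0.53, edgeR adjusted p = 0.0370). The estimated counts behind it were 479 and 484 in controls and 1060 to 5029 in A3B livers, and all 6 of its annotated transcripts had a higher mean TPM in A3B livers. Cry1 (chr10:85131700-85185064), a repressor of ARNTL and CLOCK, was at 2.58 and 2.90 TPM in controls and at 10.9 to 40.4 TPM (median 25.1) in A3B livers. The groups did not overlap, and the log2 fold change was 2.84 (SE 0.46, adjusted p = 0.0148).

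Dbp (chr7:45705088-45710203), the D-box activator and a direct target of ARNTL and CLOCK, went the other way. It was at 63.6 and 86.1 TPM in the control livers and at 2.34 to 18.7 TPM (median 4.49) in the A3B livers, a log2 fold change of -3.82 (SE 0.68, edgeR adjusted p = 0.0205). All A3B livers lay below both controls, and all 5 of its transcripts had a lower mean. Nr1d1 (chr11:98767932-98775333), which represses Arntl, was at 55.9 and 60.5 TPM in controls and at 5.55 to 23.0 TPM (median 10.5) in A3B livers, a log2 fold change of -2.71 (SE 0.44, adjusted p = 0.0146). Again the groups did not overlap. Per3 (chr4:151003652-151044665), a period gene, was at 4.09 and 10.3 TPM in controls and at 1.43 to 4.74 TPM in A3B livers; its log2 fold change was -1.73 (SE 0.40, adjusted p = 0.0462), and it was below both controls in 4 of the 6 A3B livers. The call of Per3 was lost under 8 of 13 alternatives, among them total-count scaling (adjusted p = 0.0640) and a term for Y-linked expression (adjusted p = 0.0674).

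The other 5 genes did not pass the edgeR test in livers of set 2. Npas2 (chr1:39193731-39363236), which can replace CLOCK as the partner of ARNTL, was at 0.0719 and 0.275 TPM in controls and at 0.848 to 5.81 TPM in A3B livers, with a log2 fold change of 3.20 (SE 0.92, adjusted p = 0.0819). Its groups did not overlap, but the lowest control value rests on 24 estimated counts. Npas2 passed by DESeq2 (3.12, adjusted p = 0.000717) and by edgeR with a term for Y-linked expression (3.12, adjusted p = 0.0296). Nfil3 (chr13:52967209-52981073), the D-box repressor, was at 9.74 and 14.7 TPM in controls and at 21.2 to 64.8 TPM in A3B livers, also without overlap (log2 fold change 1.22, SE 0.45, adjusted p = 0.149). Clock (chr5:76209868-76304792) was at 5.07 and 6.37 TPM against 6.60 to 12.3 TPM, with a log2 fold change of 0.23 (adjusted p = 0.69). Nr1d2 (chr14:18204054-18239127) and Per2 (chr1:91415982-91459324) overlapped between groups: Nr1d2 was at 24.6 and 29.7 TPM against 16.4 to 47.8 TPM, and Per2 at 3.74 and 6.10 TPM against 1.78 to 11.3 TPM. The log2 fold change of Nr1d2, the paralog of Nr1d1, was -0.36 (adjusted p = 0.536).

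**Figure D1:**
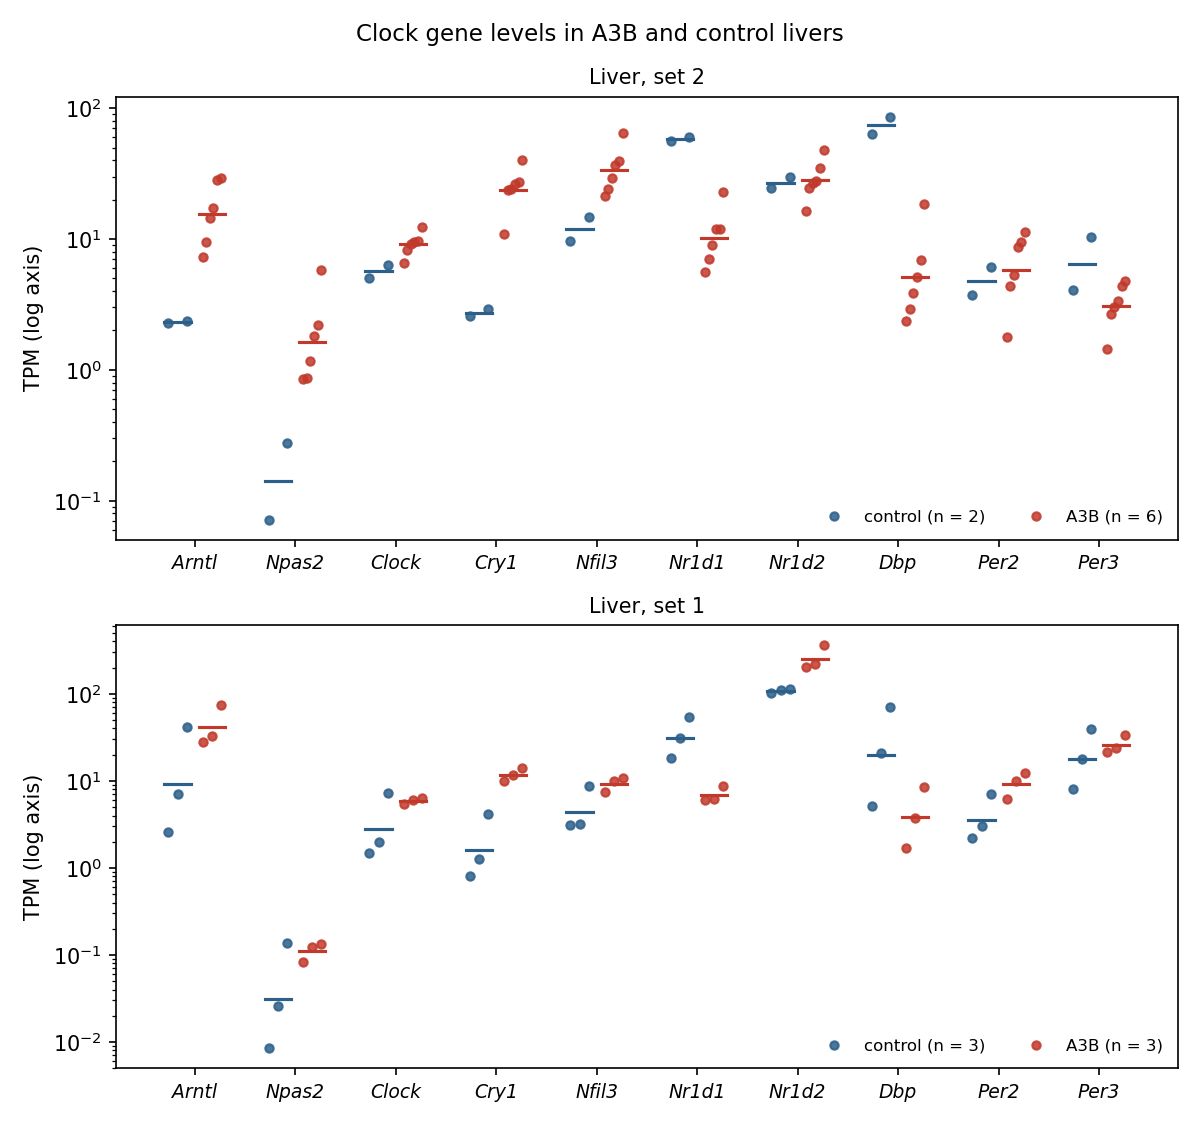
Level of each of the 10 clock genes in every liver, in TPM on a log axis, for set 2 and set 1; points are mice and bars are geometric means of a group. In set 2 the 6 A3B livers sit above both controls for Arntl (7.28 to 29.3 against 2.29 and 2.38 TPM) and below both for Dbp (2.34 to 18.7 against 63.6 and 86.1 TPM), while in set 1 control liver 11 sits among the A3B livers for Arntl and Dbp.

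Livers of set 1 asked the same question in other mice with another processing. There, 2 of the 9 clock genes whose mean reached 1 TPM changed, against 7.93% of 11507 genes tested (limma on log2(TPM + 1)). Cry1 was at 0.802, 1.27 and 4.15 TPM in controls and at 10.0, 11.8 and 14.0 TPM in A3B livers, a difference of 2.22 on that scale (SE 0.43, limma adjusted p = 0.0342). Nr1d1 was at 18.5, 31.3 and 54.0 TPM in controls and at 5.97, 6.16 and 8.71 TPM in A3B livers, a difference of -2.05 (SE 0.42, adjusted p = 0.0385). Neither gene overlapped between groups, and with Nr1d2 (103, 112 and 112 TPM against 203, 218 and 361 TPM, adjusted p = 0.0583) they made 3 of the 9 genes without overlap, against 38.9% of all genes tested.

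Control liver 11 stood apart from the other controls in this comparison. Arntl was at 41.7 TPM in it, against 7.06 and 2.62 TPM in controls 91 and 92 and 28.2, 32.9 and 75.4 TPM in A3B livers. Dbp was at 5.13 TPM in it, against 21.1 and 70.4 TPM in those controls and 1.69, 3.79 and 8.61 TPM in A3B livers. For both genes the liver lay within the A3B range, and neither passed the test with all 3 controls (Arntl 1.97, SE 0.87, limma adjusted p = 0.162; Dbp -2.10, SE 0.88, adjusted p = 0.147). Without control liver 11, 6 of 9 clock genes passed, against 13.6% of all genes in that fit: Arntl (2.97, adjusted p = 0.0338), Clock (1.34, adjusted p = 0.0337), Cry1, Nfil3 (1.32, adjusted p = 0.0386), Per2 (1.504, adjusted p = 0.0498) and Nr1d1 (-1.68, adjusted p = 0.0374). Dbp missed the threshold there (-2.995, limma adjusted p = 0.0525). Without control 91, control 92 or A3B liver 23 no clock gene passed limma's test after adjustment, where 0.0086%, 0.078% and 0.48% of all genes did. At an unadjusted p below 0.05 were 3, 3 and 4 of 9 clock genes in these fits. Of all genes, 2107 of 11600, 2040 of 11608 and 3257 of 11546 were. Without A3B liver 70 the adjusted test was passed by 1 clock gene (11.6% of all genes). Npas2 stayed under 0.136 TPM in every liver and lung of set 1 and was not tested.

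A fit over all 14 livers, with a term for the set, called 6 of 9 clock genes, against 39% of 10150 genes tested. Arntl (2.15, SE 0.50, limma adjusted p = 0.00401), Cry1 (2.48, SE 0.30, adjusted p = 5.32e-05), Nfil3 (1.16, SE 0.29, adjusted p = 0.00626) and Clock (0.70, SE 0.26, adjusted p = 0.0430) were higher in A3B livers. The call of Clock was lost under 13 of 18 alternatives, with adjusted p from 0.00384 to 0.116 over them. That of Arntl was lost under 1 of 18 (highest limma adjusted p = 0.0712). Nr1d1 (-2.22, SE 0.31, adjusted p = 0.000134) and Dbp (-2.84, SE 0.57, adjusted p = 0.00162) were lower. Nr1d2 (0.63, adjusted p = 0.0829), Per2 (0.70, adjusted p = 0.136) and Per3 (-0.19, adjusted p = 0.706) did not pass. Per3 differed in sign between the sets: its difference was 0.50 (adjusted p = 0.535) in set 1, where controls held 8.06, 17.8 and 39.1 TPM and A3B livers 21.7, 23.8 and 33.4 TPM. Whether the sets differ for Per3 was not tested.

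In pancreases of set 2, 1 of the 10 clock genes changed, against 31.9% of 19142 genes tested. That gene was Nfil3, at 1.18 and 1.19 TPM in the controls and at 16.4 to 37.6 TPM (median 22.3) in the A3B pancreases, a log2 fold change of 1.998 (SE 0.51, edgeR adjusted p = 0.0150). Its call was lost without control 168, which leaves 1 control. The count of clock genes called was 4 without A3B mouse 125, where 30.8% of all genes passed. Arntl was at 1.07 and 1.15 TPM in controls and at 7.18 to 10.2 TPM in A3B pancreases, and Cry1 at 0.816 and 1.24 TPM against 5.15 to 8.78 TPM. Neither overlapped between groups in TPM, as for 7 of the 10 genes and 71.9% of all genes tested. After TMM normalization, which scales libraries to the bulk of genes, their log2 fold changes were 0.43 (SE 0.32, adjusted p = 0.331) and 0.62 (SE 0.30, adjusted p = 0.137). TPM and TMM part here because the TMM factors were 0.21 and 0.443 in the control pancreases and 1.30 to 1.79 in the A3B pancreases. Scaling by total counts moved the median over all genes to 2.29 and called 7 of the 10 clock genes, near the 71.5% of all genes that it called.

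Dbp and Nr1d1, which fell in the livers, did not pass in pancreas. Dbp was at 1.31 TPM in control pancreas 45, at 12.9 TPM in control pancreas 168 and at 7.57 to 28.0 TPM (median 8.87) in A3B pancreases; its log2 fold change was -0.98 (SE 0.65, edgeR adjusted p = 0.278). Nr1d1 was at 2.08 and 7.64 TPM in controls and at 10.3 to 43.0 TPM in A3B pancreases, with a log2 fold change of 0.08 (SE 0.53, adjusted p = 0.921). Dbp turned positive with total-count scaling (0.94), and Nr1d1 was higher in all A3B pancreases in TPM. Per3 had a log2 fold change of -1.504 (SE 0.55, adjusted p = 0.0629), and Npas2, Clock, Nr1d2 and Per2 lay between -0.76 and 0.56 with adjusted p from 0.21 to 0.639. By edgeR, acinar markers fell in A3B pancreases for 6 of 7 genes and endocrine markers for 1 of 4, where 31.9% of all genes were called. Fibroblast markers rose for 3 of 4, ductal markers for 3 of 5 and leukocyte markers for 2 of 6. In TPM, the acinar marker Ctrb1 was higher in all A3B pancreases (35180 to 113874 against 24605 and 25751 TPM), and Cpa1 overlapped. The part of these markers in the clock gene values was not tested.

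**Figure D2:**
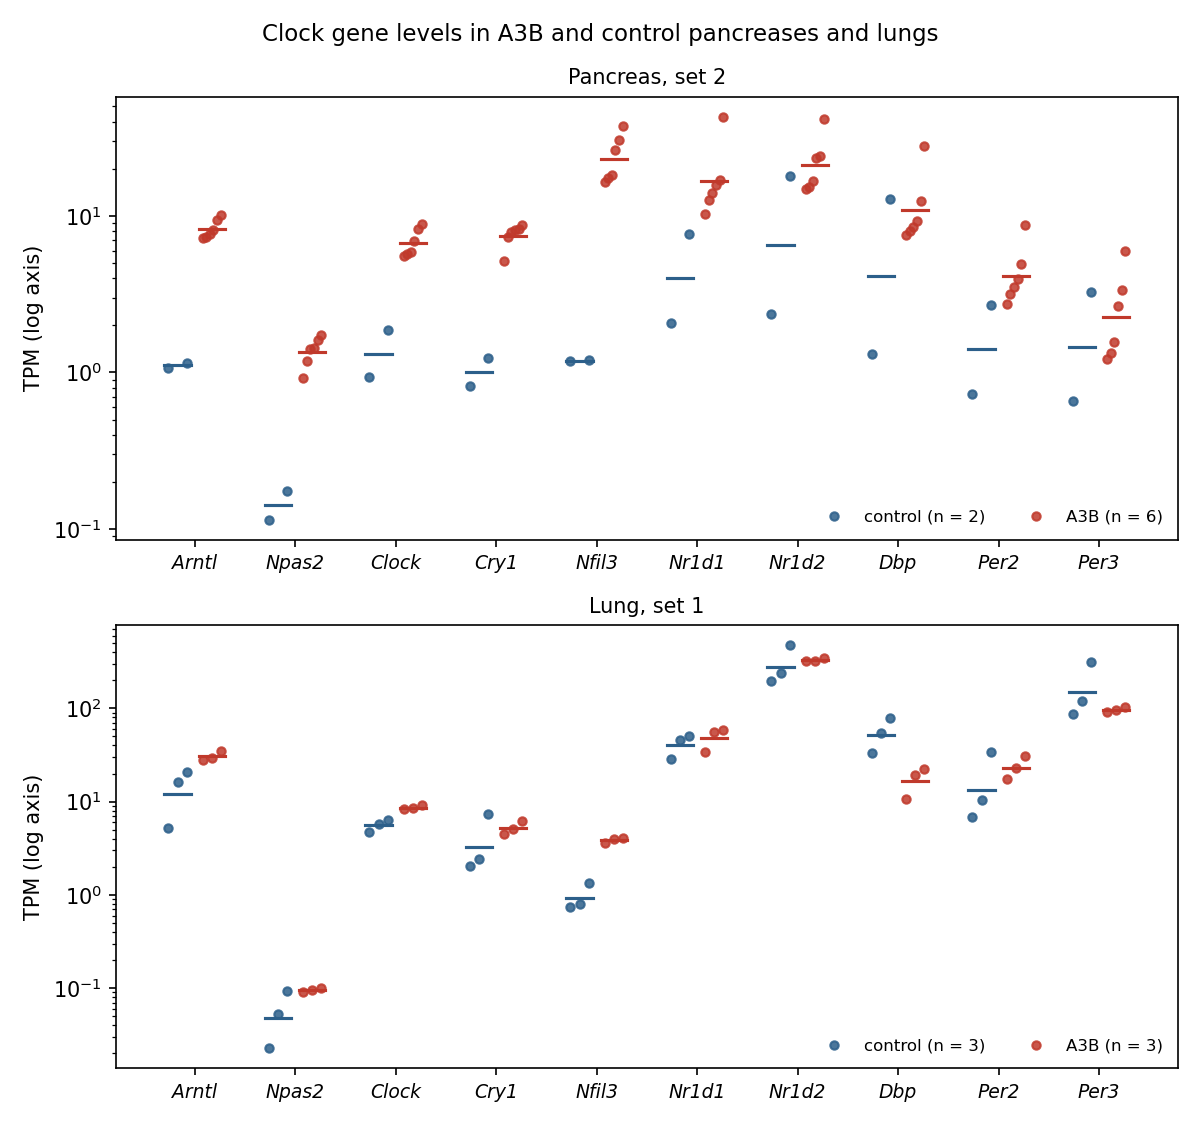
Level of each of the 10 clock genes in every pancreas of set 2 and every lung of set 1, in TPM on a log axis; points are mice and bars are geometric means of a group. Nfil3 is higher in all A3B samples of both organs (16.4 to 37.6 against 1.18 and 1.19 TPM in pancreas, 3.58 to 4.07 against 0.743 to 1.34 TPM in lung), and control lung 87 sits apart for Per3 and Nr1d2.

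The difference between the organs was then tested directly, as the A3B effect in pancreas minus that in liver. It passed for 3 of the 10 genes, against 11.9% of 19927 genes: Arntl (-1.88, SE 0.59, edgeR adjusted p = 0.0496), Cry1 (-2.06, SE 0.49, adjusted p = 0.0165) and Nr1d1 (2.92, SE 0.78, adjusted p = 0.0250). With TMM normalization the rise of Arntl and Cry1 was thus larger in liver, and Nr1d1 fell in liver but not in pancreas. With total-count scaling the difference was -0.056 for Arntl (adjusted p = 0.966) and -0.38 for Cry1 (adjusted p = 0.557), neither of which passed, while Nr1d1 passed (4.42, adjusted p = 0.00101) together with Clock, Dbp and Nfil3. The difference for Dbp was of the same size as that for Nr1d1 but did not pass (2.96, SE 1.12, adjusted p = 0.0951). Since the same mice gave both organs, a fit with the mouse as a block was also made. In it, Cry1 (-1.75, adjusted p = 0.0276) and Nr1d1 (2.88, adjusted p = 0.00813) passed, Dbp passed (3.69, adjusted p = 0.0346) and Arntl did not (-1.68, adjusted p = 0.114). Without control mouse 45 or control mouse 168, which leaves 1 control mouse, the 3 calls of the fit without the block were lost, as most calls were over all genes. Arntl, Cry1 and Nr1d1 kept their direction.

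In lungs of set 1, where the sums of leukocyte and of adipocyte markers differed between the groups as given above, 3 of 9 clock genes changed, against 36.8% of 13651 genes tested. Nfil3 rose from 0.743, 0.808 and 1.34 TPM in controls to 3.58, 3.99 and 4.07 TPM in A3B lungs, a difference of 1.32 on the log2(TPM + 1) scale (SE 0.14, limma adjusted p = 0.00292). Clock rose from 4.74, 5.69 and 6.35 TPM to 8.23, 8.54 and 9.10 TPM (0.55, SE 0.12, adjusted p = 0.0138). Dbp fell from 33.1, 54.5 and 79.3 TPM to 10.5, 19.5 and 22.2 TPM (-1.60, SE 0.39, adjusted p = 0.0244). Its call was lost under 3 of 9 alternatives (highest limma adjusted p = 0.0746). Nfil3, Clock, Dbp and Arntl did not overlap between groups, which makes 4 of 9 against 53.9% of all genes tested. Arntl was at 5.27, 16.3 and 21.0 TPM in controls and at 27.6, 29.5 and 34.8 TPM in A3B lungs (1.24, SE 0.47, adjusted p = 0.0863).

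Control lung 87 stood apart, with Per3 at 316 TPM against 87.3 and 120 TPM in controls 88 and 91, Per2 at 33.7 TPM against 6.84 and 10.3 TPM, and Nr1d2 at 472 TPM against 195 and 238 TPM. Without it, 6 of 9 clock genes passed, against 30.1% of all genes in that fit: Arntl (0.69, limma adjusted p = 0.0283), Clock, Cry1 (0.96, adjusted p = 0.0127), Nfil3, Nr1d2 (0.61, adjusted p = 0.0215) and Per2 (1.36, adjusted p = 0.0218), while Dbp missed the threshold (-1.30, adjusted p = 0.05004). Nr1d1 was at 29.0, 46.2 and 51.0 TPM in control lungs and at 33.9, 55.8 and 58.4 TPM in A3B lungs, a difference of 0.23 (SE 0.28, adjusted p = 0.561). The lung effect minus the liver effect passed for 1 of 9 clock genes, Nr1d1 (2.28, SE 0.53, adjusted p = 0.0244), against 10.7% of 13477 genes tested. With the mouse as a block, since mice 70 and 91 gave both organs, Nr1d1 (2.13, adjusted p = 0.0139) and Cry1 (-1.66, adjusted p = 0.0431) passed. Without control 91, control 92, A3B mouse 70, control lung 87 or A3B lung 69 no clock gene passed the lung minus liver test after adjustment. In that order, these fits called 37, 116, 499, 152 and 118 of all genes higher and 125, 455, 1422, 570 and 466 lower. At an unadjusted p below 0.05 were 1 to 3 of 9 clock genes. Of all genes, 2629 of 13481, 3144 of 13573, 4340 of 13444, 3309 of 13420 and 3290 of 13416 were. Without control liver 11, 3 clock genes passed, against 20.9% of all genes in that fit. Nr1d1 thus fell in livers of both sets, with no called change in pancreas or lung. Its effect in liver differed from that in pancreas and from that in lung, each in its own set and with the limits given above.

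**Figure D3:**
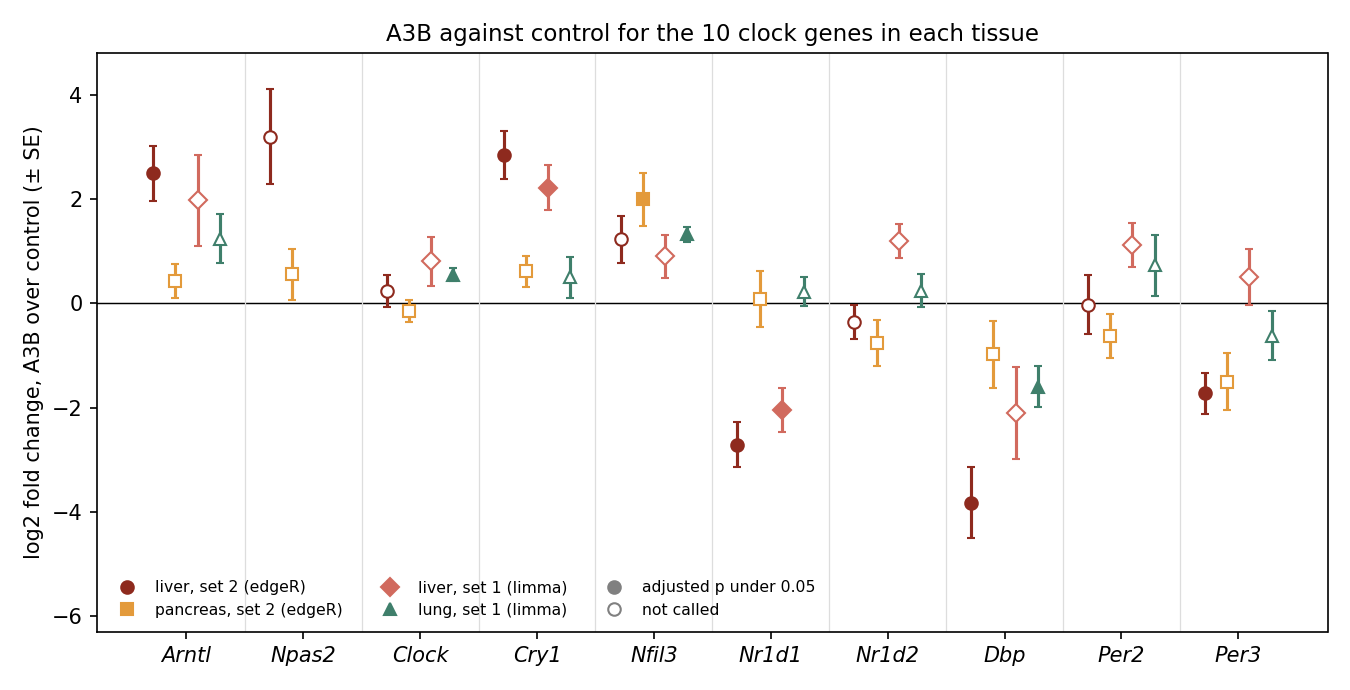
A3B effect on each clock gene by organ and set, as a log2 fold change (set 2, estimated counts) or a difference of log2(TPM + 1) (set 1), with bars of 1 SE; filled points have an adjusted p below 0.05. Nr1d1 is at -2.71 and -2.05 in the livers but at 0.08 in pancreas and 0.23 in lung, whereas Nfil3 is above 0 in all 4 comparisons, from 0.90 to 1.998.

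Ratios of clock genes within a library do not depend on how libraries are scaled, and were used to ask whether the organs of 1 mouse shared the pattern; they are given as descriptions. The log2 ratio of Arntl to Dbp TPM was -5.23 and -4.74 in the control livers of set 2 and -0.36 to 3.33 (median 1.90) in the A3B livers, so that the group means differed by 6.60. In pancreas it was -0.19 in control mouse 45, -3.58 in control mouse 168 and -1.79 to 0.26 in A3B mice, with group means 1.49 apart and 3 of 6 A3B pancreases above both controls. In lung it was -3.91, -1.74 and -0.66 in controls and 0.50, 0.65 and 1.49 in A3B mice, without overlap. Among livers of set 1 it was -4.75, -1.58 and 3.02 in controls, the last in control liver 11, and 1.93, 4.06 and 4.32 in A3B mice.

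Read mouse by mouse, the ratio of Arntl to Dbp was lower in pancreas than in liver in 5 of 5 A3B mice. It was 3.33 in liver and 0.24 in pancreas of mouse 44, 2.46 and -1.79 in mouse 125, 2.16 and -0.36 in mouse 137, 1.63 and 0.26 in mouse 49, and -0.36 and -0.76 in mouse 153. Both controls went the other way, at -5.23 in liver and -0.19 in pancreas of mouse 45 and -4.74 and -3.58 in mouse 168. The 2 organs of control mouse 45 thus stood far apart in this ratio, by more than those of any A3B mouse. In mouse 70 of set 1 the ratio was 1.93 in liver and 0.50 in lung, and in control mouse 91 it was -1.58 and -1.74.

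The ratio of Arntl to Nr1d1 separated the groups in both sets of livers. It was -4.72 and -4.56 in controls and -0.72 to 1.71 in A3B mice of set 2, and -3.58 to -0.37 in controls and 1.70 to 3.62 in A3B mice of set 1. In lung the ranges were -2.46 to -1.28 and -1.01 to -0.20, without overlap but with group means only 1.09 apart. In pancreas they overlapped, at -2.83 and -0.86 in controls and -2.41 to -0.12 in A3B mice. The ratio of Nfil3 to Dbp, taken up after its values were seen, did not overlap in pancreas, at -3.43 and -0.15 in controls and 0.43 to 1.72 in A3B mice, but overlapped in livers of set 1 (-4.46 to 0.79 in controls, 0.20 to 2.16 in A3B mice).

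**Figure D4:**
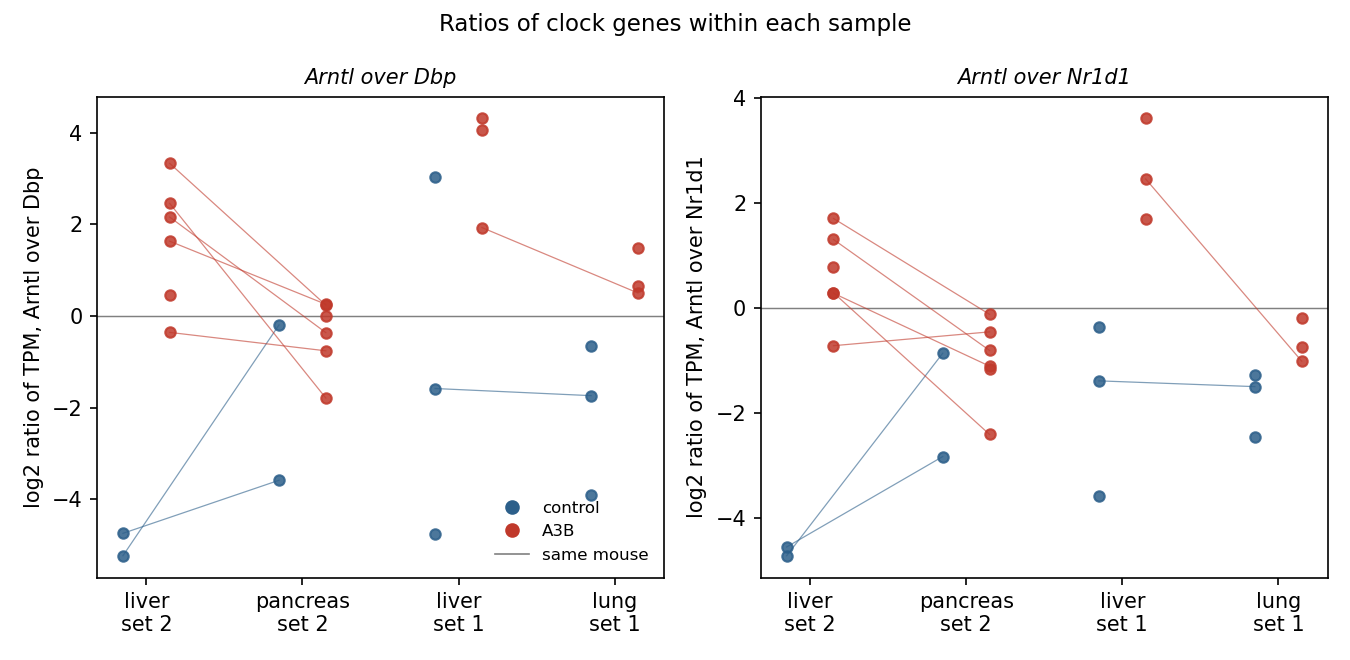
log2 ratio of Arntl to Dbp TPM and of Arntl to Nr1d1 TPM in each library, by organ and group, with lines joining organs of 1 mouse. The Arntl to Dbp ratio of A3B livers in set 2 (-0.36 to 3.33) lies above that of both control livers (-5.23 and -4.74), while in pancreas 3 of 6 A3B mice lie above both controls.

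The 5 A3B mice with both organs could also be put in order for each gene, and the full order differed between the organs for 9 of the 10 genes. A full match of 5 places is rarely met, so this count cannot say whether the organs share an order in part. For Clock and Cry1, mouse 44 was the highest in liver and the lowest in pancreas. For Nr1d1, mice 125, 153 and 49 came first in both organs, and for Nr1d2 mouse 125 was the highest and mouse 44 the lowest in both. Per1, outside the 10, had the same full order in both organs. Nfil3 gave the same order in liver (64.8, 39.3, 36.9, 29.5 and 21.2 TPM in mice 125, 137, 44, 153 and 49) and in pancreas (37.6, 30.4, 26.4, 17.4 and 16.4 TPM). Mouse 125 had the highest level of these mice for 4 of the 10 clock genes in liver and for 7 in pancreas, and mouse 44 had the highest for 4 in liver and none in pancreas. In TPM this order depends on the whole library, and it is given as a description, with no test.

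Of 10 further genes of the core loop, 8 were tested in livers of set 1 and 1 rose, against 7.93% of all genes called: Per1, a period gene that answers glucocorticoids directly (3.22, SE 0.55, limma adjusted p = 0.0259). It was at 0.567, 4.67 and 4.92 TPM in controls and at 24.8, 36.8 and 42.8 TPM in A3B livers. Its ranges overlapped in livers of set 2, at 9.50 and 18.5 TPM in controls and 17.5 to 71.5 TPM in A3B mice, where edgeR called 1 of 10 core loop genes, against 3.66% of all genes, and DESeq2 called 3, against 13.8%. The gene edgeR called was Bhlhe41, a repressor of E-box genes, which fell (-3.04, adjusted p = 0.0307). Bhlhe41 was low, at 0.303 and 1.94 TPM in those controls and 0.0865 to 0.196 TPM in A3B mice, and in livers of set 1 it lay the other way (0.128 to 0.620 TPM in controls, 0.744 to 5.44 TPM in A3B mice, without overlap; difference 0.97, limma adjusted p = 0.244). In lung 4 of 8 tested rose and none fell, where 36.8% of all genes were called: Per1 (1.497, adjusted p = 0.0288), Cry2 (0.95, adjusted p = 0.0178), Rora (0.95, adjusted p = 0.00349), the activator that binds the same elements as NR1D1, and Bhlhe40 (0.84, adjusted p = 0.0330). In pancreas 1 of 10 rose, Bhlhe40 (1.67, adjusted p = 0.00225), against 31.9% of all genes called. Over both sets of livers, 3 of 7 rose, against 39% of all genes called: Per1 (2.13, adjusted p = 0.0028), Cry2 (1.34, adjusted p = 0.00787) and Rora (1.29, adjusted p = 0.00897). Among the period genes, Per1 was thus higher over both sets of livers, Per2 did not pass in either set, and Per3 was lower in set 2 with a call that 8 of 13 alternatives lost.

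Kinases and ubiquitin ligases that set the life of clock proteins, 10 genes, had no call in livers of set 2 by edgeR, against 3.66% of all genes. At an unadjusted edgeR p below 0.05 were 4 of them, beside 3987 of 17376 genes. DESeq2 called 2 of them there, and over all genes 1302 higher and 1099 lower. In livers of set 1 there was 1 call, Csnk1e, a kinase of the PER proteins (2.12, limma adjusted p = 0.0227), against 7.93% of all genes called there. In pancreas 4 of 10 rose and 1 fell, among them Fbxw11 (1.60), Gsk3b (1.28), Csnk1e (1.21) and Fbxl21 (-1.88), against 31.9% of all genes called. In lung 4 of 9 rose and 1 fell, among them Csnk1e (0.68), Csnk1d (0.68), Gsk3b (0.51) and Csnk2a1 (-0.30), against 36.8%. Over both sets of livers 4 of 10 rose and 1 fell, among them Csnk1e (2.08), Gsk3b (1.44) and Fbxl21 (-1.13), against 39%. Of the 12 output genes, 6 rose in pancreas, 4 of 10 tested rose in lung and 2 of 12 rose in livers of set 1, and none fell, against 31.9%, 36.8% and 7.93% of all genes called. Livers of set 2 had none of the 12 passing by edgeR, against 3.66% of all genes, or by DESeq2, which called 1302 genes higher and 1099 lower. At an unadjusted p below 0.05 was 1 of the 12 in each, beside 3987 and 4618 of 17376 genes. Wee1, a cell cycle kinase with E-boxes, rose in livers of set 1 (2.04, adjusted p = 0.0199) and in pancreas (1.97). Nampt, an enzyme of NAD synthesis, rose in livers of set 1 (1.49, adjusted p = 0.0395), pancreas (1.37) and lung (1.03). Tsku rose in pancreas (2.09) and lung (0.97), Por, the electron donor of cytochrome P450 enzymes, in pancreas (2.40), and Lpin1, a phosphatase of lipid synthesis, and Noct in lung (2.50 and 1.67). Over both sets of livers, 4 of 12 rose, against 39% of all genes called: Nampt (1.30), Wee1 (1.39), Noct (1.55) and Usp2 (1.86). The median log2 fold change of the output list was 0.33 in livers of set 2 (0.21 over all genes) and 1.15 in pancreas (0.09 over all genes).

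Glucocorticoids and body temperature are cues that set peripheral clocks, and 9 genes that answer them were examined beside the clock genes. In livers of set 2, 2 of 9 rose and 1 fell, against 3.66% of all genes called: Zbtb16 (3.18, edgeR adjusted p = 0.0247) and Sgk1 (2.13, adjusted p = 0.0453), both induced by glucocorticoids, and Hspa1b, a heat shock gene (-3.12, adjusted p = 0.0100). In livers of set 1, 3 of 8 rose, against 7.93% of all genes: Zbtb16 (3.65, adjusted p = 0.0202), Sgk1 (2.72, adjusted p = 0.0432) and Rbm3, which is induced by cold (2.53, adjusted p = 0.0446). In lung 6 of 8 rose, with Fkbp5 (3.23, adjusted p = 0.00346), Klf9 (1.38), Hspa1b (0.82) and Sgk1 (1.495) among them, against 36.8% of all genes called. In pancreas 1 of 9 rose, Fkbp5 (2.44, adjusted p = 0.00825), a smaller share than the 31.9% of all genes called there. The list's median was 1.89 in livers of set 2 and 2.001 in livers of set 1, beside 0.21 and 0.39 over all genes. Whether these changes bear on the clock gene values was not tested.

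Likeness to Arntl between mice of 1 group was measured as Pearson's r of log2(TPM + 1) over the 14 livers after the mean of each set and group was subtracted, against 10149 other genes. It leaves out the difference between A3B and control livers, and as each pair of genes comes from the same libraries it is a description. Cry1 (r = 0.84) ranked 102nd, Nfil3 (0.83) 118th and Clock (0.74) 527th. Dbp (-0.56) and Per3 (-0.52) lay near the low end, at places 215 and 295 from the lowest. Nr1d1 had an r of 0.42 within groups, although its group means lay opposite to those of Arntl in both sets of livers. The genes most like Arntl outside the clock lists were Dhx36 (0.949), Appl1 (0.948) and Gdap2 (0.93), and the least like it were Lamtor4 (-0.83), Cib2 (-0.82) and Selenow (-0.80). Within the 9 A3B livers alone, r was 0.71 for Cry1 and 0.82 for Nfil3 but 0.14 for Clock, -0.003 for Dbp and 0.17 for Per3. Among the controls of set 1, liver 11 held 41.7 TPM of Arntl, 5.13 of Dbp and 8.06 of Per3, against 2.62, 70.4 and 39.1 TPM in liver 92. The weight of control liver 11 in these ranks was not tested. Npas2 averaged under 1 TPM in livers of set 1 and was not ranked.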

How the data were processed

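RNA was measured in 28 libraries of mouse liver, pancreas and lung, 1 mouse each. For set 2 the authors deposited kallisto (0.46.1, mm10) estimated counts and TPM per transcript; for set 1 they deposited a table of TPM per gene from a matrix of reads counted with GenomicAlignments and GenomicFeatures. Transcripts of set 2 (116728 of 119414 matched to a symbol) were summed per gene. Estimated counts were rounded and tested in edgeR 4.0.16 (quasi-likelihood F test, TMM, filterByExpr) under R 4.3.3. Deposited TPM were tested as log2(TPM + 1) in limma 3.58.1 for genes averaging 1 TPM or more, in set 1 and over both sets of livers with a set term; such differences understate changes of low genes. All p-values are two-sided and Benjamini-Hochberg adjusted over all genes tested, with a threshold of 0.05. Differences between organs were interaction terms. TPM levels of the sets were normalized separately and are compared within a set. Alternatives were DESeq2 1.42.0, total-count scaling, other filters and pseudocounts, and leaving out each replicate. The tests were tried on simulated data first. Ratios are of TPM and have no test. Set 1 gives no depth. Python 3.11.15 and pandas 2.3.3 read the tables.

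Organs of set 2 were paired, since the labels give the same mouse numbers: deviations of liver and pancreas from their group means correlated at 0.11 to 0.39 over 13577 genes in 4 A3B mice, at -0.02 in mouse 49 and at 0.02 in the controls. Clock genes were named by a list, and the further genes by lists of the core loop, kinases and ligases, outputs and cues, of which Per1 and the called genes with the smallest p, up to 4 a list, are named for A3B against control; 1 gene is not reported here. The members and lists were chosen with earlier results of these data known. The replicates are separate mice.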

Additional observations from a re-analysis of the deposited data

Results flagged for a closer look

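In 3 of the 20 groups of 6 A3B samples examined, 1 sample stood apart from the other 5 by Dixon's test on log2(TPM + 1), where chance gives about 1 in 20. Nr1d1 was at 43.0 TPM and Dbp at 28.0 TPM in A3B pancreas 125, the highest of their group, and Cry1 was at 5.15 TPM in A3B pancreas 53, the lowest. Without mouse 125, 4 of the 10 clock genes passed the edgeR test in pancreas, against 1 with it; of all genes, 30.8% and 31.9% passed. The A3B effect differed between organs for 3 genes in set 2, with a log2 difference of pancreas minus liver of -1.88 for Arntl, -2.06 for Cry1 and 2.92 for Nr1d1. In set 1 the difference of lung minus liver was 2.28 for Nr1d1.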

How the results depend on the processing

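Over 840 values of single clock genes under other settings, 691 kept their direction and side of the threshold, 68 kept direction but lost the call, 38 gained it and 43 turned sign. Cry1, Dbp, Nfil3 and Nr1d1 kept both under all 18 alternatives over both sets of livers, as Clock and Nfil3 did under 9 in lung. All calls in livers of set 2 and for pancreas minus liver were lost without either control, and the call of Nfil3 in pancreas without control 168. The cause of the changes listed here was not tested, except that leaving out a library lowers the number of samples.

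In pancreas DESeq2 called 2 clock genes, a term for Y-linked expression 2, total-count scaling 7 and limma on log2(TPM + 1) 8, in place of 1, where they called 36.5%, 28.6%, 71.5% and 85% of all genes. DESeq2 called 5 in place of 3 for pancreas minus liver (18.9% of all genes). With no filter, 0 passed limma in livers of set 1, in place of 2, and 0.28% of all genes did. The mean log2 contrast of Arntl, Npas2, Clock, Cry1 and Nfil3 over the others in livers of set 2 differed between groups by 2.97, and by 3.55 with a pseudocount of 0.1. It differed by 1.46 in livers of set 1 (1.80), by 0.94 in lung (1.18) and by 0.95 in pancreas (1.495), with the values for that pseudocount in parentheses.

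Leaving out 1 library gave counts of clock genes called of 0 to 5 in livers of set 2, 0 to 4 in pancreas (4 without A3B mouse 125, 3 without control 45 and 0 without control 168), 0 to 3 for pancreas minus liver, 0 to 6 in livers of set 1, 2 to 6 in lung, 0 to 3 for lung minus liver and 5 to 7 over both sets of livers. The shares of all genes called in these fits were, in the same order, 0.39% to 9.34%, 18.99% to 30.8%, 0.40% to 15.1%, 0.0086% to 13.6%, 21.9% to 33.7%, 1.20% to 20.9% and 28.6% to 46.2%.

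The replicate block (the mouse) raised the count of lung minus liver from 1 to 2, with Cry1 at -1.66 (limma adjusted p = 0.0431) beside Nr1d1 at 2.13 (adjusted p = 0.0139). For pancreas minus liver, the block lost Arntl and gained Dbp, and changed no other call.

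With total-count scaling and with limma on log2(TPM + 1), in that order, these log2 fold changes turned positive. In livers of set 2 Nr1d2 was at 0.088 and 0.063 and Per2 at 0.38 and 0.27. In pancreas Clock was at 2.12 and 1.72, Nr1d2 at 1.21 and 1.47, Dbp at 0.94 and 1.08, Per2 at 1.44 and 1.04, and Per3 at 0.50 and 0.35. For pancreas minus liver, total-count scaling gave Clock 1.43, Nr1d2 1.12 and Per2 1.06. It also brought Arntl to -0.056 and Cry1 to -0.38, which lost their calls there, while Clock, Dbp and Nfil3 gained theirs. Over both sets of livers without the set term, Nr1d2 was at -0.085.

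Leaving out 1 library turned the sign of these log2 fold changes, given from the lowest to the highest. In livers of set 2 Clock ran from -0.12 to 0.47 and Per2 from -0.56 to 0.57. In pancreas Arntl ran from -0.090 to 1.29, Npas2 from -0.086 to 1.73, Clock from -0.31 to 0.073, Nr1d1 from -0.37 to 0.62, Nr1d2 from -1.27 to 0.081 and Dbp from -1.58 to 0.16. For pancreas minus liver Clock ran from -0.68 to 0.24, Nr1d2 from -0.75 to 0.58, Per2 from -1.45 to 0.42 and Per3 from -0.77 to 1.57. In set 1 Per3 ran from -0.033 to 1.04 in liver, and Nr1d1 from -0.016 to 0.47 and Nr1d2 from -0.022 to 0.61 in lung. For lung minus liver Arntl ran from -1.73 to 0.048, Clock from -0.79 to 0.083, Dbp from -0.37 to 1.40 and Per2 from -0.83 to 0.24. Per3 ran from -0.50 to 0.21 over both sets of livers.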
